A study of Homo sapiens with 24 samples.

Results

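Counts were followed for 3 overlapping pairs of protein-coding genes, LYRM2 with ANKRD6, FZD4 with PRSS23, and ST7L with WNT2B. The genes of a pair lie on opposite strands and share exonic bases, and each pair holds a gene of the Wnt pathway (ANKRD6, FZD4 or WNT2B). The members were the 6 rows with these names among the 61248 features of each count table. They were chosen by their counts in these libraries, with earlier results in view, and the contrast behind the choice is not recorded, so all their differences are given as a description and without a p-value. The cells were H7, a human embryonic stem cell line, in 2 lines in which BRAT1 was knocked out (BRAT1 KO) and 2 control lines. Each line was sampled after 14 days of ventral differentiation as neural progenitors (day 14) and as undifferentiated stem cells (day 0), with 3 biological replicates lettered A to C. Each genotype therefore has 6 libraries a day from 2 lines, which makes 24 libraries of poly(A) RNA prepared by Click-Seq. BRAT1 is a partner of INTS11, the endonuclease of the Integrator complex that cleaves nascent RNA. How the knockout was made, and whether a line is 1 clone, is not given in the sources used here.

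Wnt proteins are secreted ligands that bind Frizzled receptors with LRP5 or LRP6 and, in the canonical branch, keep β-catenin from being degraded so that it can act with TCF and LEF factors on target genes. A second branch uses Frizzled and Dishevelled without β-catenin and orients cells within a sheet (planar cell polarity). In the early neural plate, Wnt signalling favours posterior and dorsal fates, and secreted inhibitors are produced in the anterior neural tissue. WNT2B is a canonical ligand. FZD4 is a Frizzled receptor for Wnt proteins and for norrin, and is known for its part in the growth of retinal vessels. ANKRD6, also called Diversin, is an ankyrin repeat protein of the cytoplasm that binds Dishevelled and acts in both branches. Their partners are outside the pathway. LYRM2 is a mitochondrial protein of the LYR motif family, PRSS23 is a secreted serine protease, and ST7L is a relative of the tumour suppressor candidate ST7.

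On GRCh38, with the GENCODE release 29 gene models, LYRM2 (ENSG00000083099) lies on the minus strand of chromosome 6 at 89568144 to 89638753 and ANKRD6 (ENSG00000135299) on the plus strand at 89433170 to 89633834. Their exons share 2362 bp in 4 pieces, which is 27.2% of the exonic bases of LYRM2 and 28.4% of those of ANKRD6, and the longest piece is 1611 bp (89632224 to 89633834). Of this overlap, 108 bp code for LYRM2 and 172 bp for ANKRD6. FZD4 (ENSG00000174804) lies on the minus strand of chromosome 11 at 86945679 to 86955391 and PRSS23 (ENSG00000150687) on the plus strand at 86791059 to 86952910. They share 1399 exonic bp in 2 pieces, 18.9% of FZD4 and 11.9% of PRSS23. Of this overlap, 1255 bp code for FZD4 and 67 bp for PRSS23. Of the 9 PRSS23 transcripts, 4 run far enough to meet FZD4, which has 1 transcript. ST7L (ENSG00000007341) lies on the minus strand of chromosome 1 at 112523518 to 112620825 and WNT2B (ENSG00000134245) on the plus strand at 112466541 to 112530165. They share 2661 bp in 2 pieces, 32.8% of ST7L and 21.2% of WNT2B, of which 96 bp code for ST7L and none for WNT2B. Only 1 of the 4 WNT2B transcripts reaches the overlap, against 10 of the 28 ST7L transcripts. In all 3 pairs the longest shared piece lies near the 3′ end of the plus strand gene, as the map of exons shows for each locus.

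**Figure D1:**
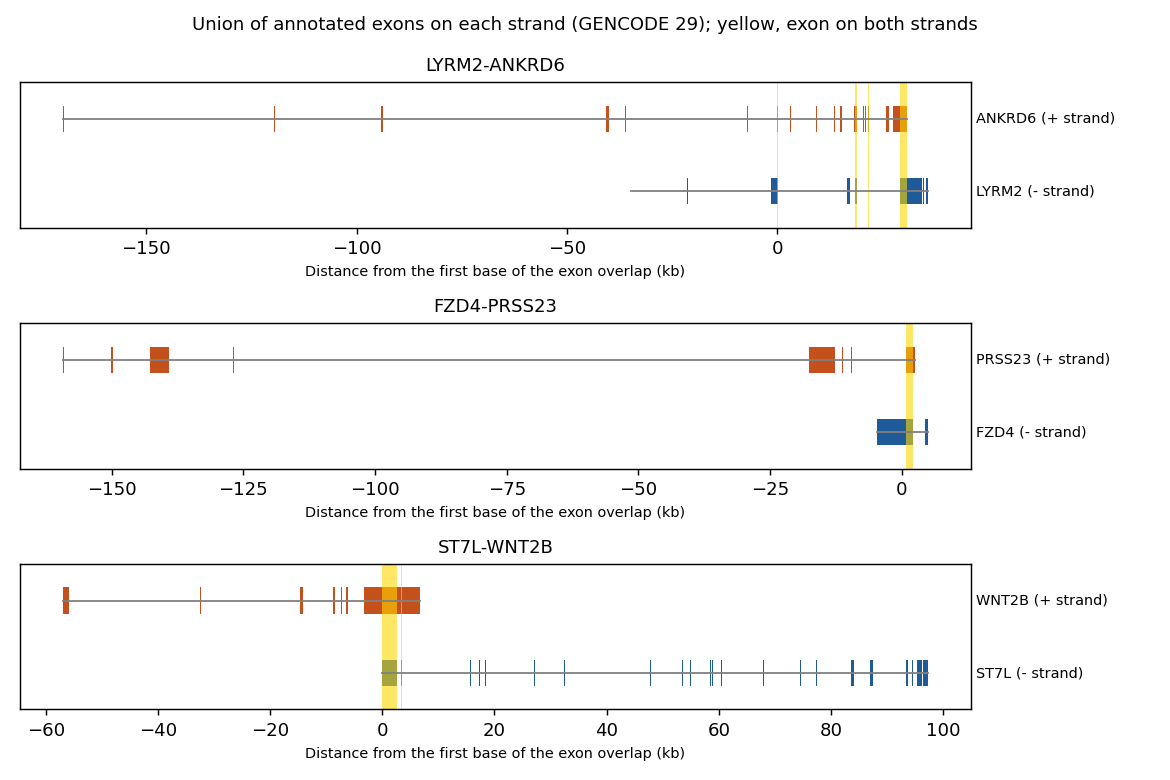
Union of annotated exons of each gene on its strand (GENCODE 29), by distance in kb from the first base of the exon overlap, with bases exonic on both strands in yellow. The shared exonic length was 2362 bp for LYRM2-ANKRD6, 1399 bp for FZD4-PRSS23 and 2661 bp for ST7L-WNT2B.

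The promoters of LYRM2 and FZD4 are printed with those of their partners, because these 2 names differed between genotypes at day 14 with no overlap of the libraries. This served only to choose which promoters to print. The sequences are RefSeq windows of 300 bases on GRCh38.p14 (250 before and 50 after an annotated start), 5′ to 3′ on the strand of the gene, with the first listed window of each gene shown. Capitals mark GGGCGG (the GC box) or CCAAT on either strand, so that CCGCCC and ATTGG are their reverse complements.

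LYRM2, chr6:89638436-89638735, minus strand: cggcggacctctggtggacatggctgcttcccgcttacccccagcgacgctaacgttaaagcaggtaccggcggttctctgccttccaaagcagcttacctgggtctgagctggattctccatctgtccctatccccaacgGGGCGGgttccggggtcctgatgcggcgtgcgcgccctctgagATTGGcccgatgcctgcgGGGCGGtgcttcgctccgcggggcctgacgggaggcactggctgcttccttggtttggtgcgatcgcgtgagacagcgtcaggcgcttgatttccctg

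ANKRD6, chr6:89432902-89433201, plus strand: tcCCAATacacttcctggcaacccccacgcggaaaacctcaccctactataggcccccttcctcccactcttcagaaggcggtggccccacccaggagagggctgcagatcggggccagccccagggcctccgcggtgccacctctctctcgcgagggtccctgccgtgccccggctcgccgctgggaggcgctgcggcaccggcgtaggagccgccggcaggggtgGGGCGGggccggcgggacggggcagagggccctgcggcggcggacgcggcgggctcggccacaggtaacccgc

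FZD4, chr11:86955346-86955645, minus strand: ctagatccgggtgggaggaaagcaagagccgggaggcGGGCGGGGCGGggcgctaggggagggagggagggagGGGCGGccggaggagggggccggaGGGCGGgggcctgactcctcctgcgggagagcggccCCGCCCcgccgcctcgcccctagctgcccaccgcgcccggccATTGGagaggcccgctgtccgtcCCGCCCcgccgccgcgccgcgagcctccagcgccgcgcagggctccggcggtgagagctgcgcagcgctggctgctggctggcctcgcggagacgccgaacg

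PRSS23, chr11:86800292-86800591, plus strand: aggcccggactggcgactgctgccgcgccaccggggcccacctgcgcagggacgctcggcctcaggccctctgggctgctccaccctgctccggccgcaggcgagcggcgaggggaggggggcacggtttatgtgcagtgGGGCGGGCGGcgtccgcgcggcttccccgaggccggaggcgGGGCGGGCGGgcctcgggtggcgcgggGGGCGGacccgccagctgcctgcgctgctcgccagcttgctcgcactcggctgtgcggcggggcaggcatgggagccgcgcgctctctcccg

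All 4 windows are rich in G and C, with 64.7% in LYRM2, 74.3% in ANKRD6, 79.7% in FZD4 and 79.3% in PRSS23, against a median of 58.7% over 35116 RefSeq promoter windows. GGGCGG occurred 2 times in the LYRM2 window, once in ANKRD6, 6 times in FZD4 and 5 times in PRSS23, counting matches that overlap each other. At least 1 match is found in 45.0% of all windows. CCAAT occurred once in the windows of LYRM2, ANKRD6 and FZD4 and is found in 34.6% of all windows. Neither TATAAA (in 11.5% of all windows) nor CTTTGAT, the core of the TCF and LEF site (in 2.62%), occurred on either strand of the 12 windows listed for the 6 members. These are matches of letters, and no binding was measured.

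The libraries held 2688218 to 3726227 counts in BRAT1 KO and 2228736 to 3682807 in control cells at day 14, and 1425141 to 2143871 in BRAT1 KO and 1407832 to 2059467 in control cells at day 0. Counts under BRAT1 itself were 7.66 to 86.8 CPM (counts scaled to the library total) in BRAT1 KO and 186 to 317 CPM in control libraries at day 14. The BRAT1 KO lines stood apart, at 11.9 ± 4.67 CPM in line 1 and 80.4 ± 8.18 CPM in line 2 (SD, n = 3 each). At day 0 counts under BRAT1 were 0 to 6.31 CPM in BRAT1 KO and 0 to 2.91 CPM in control libraries, too low to compare the genotypes. The doubt on strand described below covers counts under BRAT1 as well, so at neither day do they check the genotype labels. The summed level of 10 neural progenitor markers was 450 to 732 CPM in BRAT1 KO and 179 to 317 CPM in control libraries at day 14, against 28.0 to 56.2 CPM and 27.2 to 116 CPM at day 0. The summed level of 8 pluripotency markers did not separate the days. POU5F1 averaged 4.61 ± 2.45 CPM in BRAT1 KO and 2.58 ± 1.07 CPM in control cells at day 14. At day 0 it averaged 36.7 ± 26.7 CPM and 37.3 ± 22.3 CPM (SD, n = 6 each). SOX2, LIN28A and DPPA4 went the other way, with higher means at day 14 in both genotypes. LIN28A averaged 57.3 CPM in BRAT1 KO and 61.8 CPM in control cells at day 14, against 12.4 CPM and 11.2 CPM at day 0.

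The strand setting of the counting is not given in the sources used here, and it bears on every value of these pairs. Where an antisense feature shares exonic bases with a coding gene, 1597 of 2276 such pairs (70.2%) had more counts under the antisense name. For MALAT1, an abundant nuclear RNA, 0.00444% of all counts fell under its own name and 6.91% under TALAM1, the name on its other strand. Counts under a coding name averaged low where no exon lies on the other strand, with a median of 0.189 CPM per kb over 13167 genes, against 1.13 CPM per kb over 5440 genes with at least 100 bp of opposite exon. Counts under a name may therefore come mostly from RNA of the opposite strand, which in these pairs could be that of the partner. Which gene's RNA a count reflects was not tested within each pair. The values below are those of the counts under each name.

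At day 14, BRAT1 KO progenitors had more counts under FZD4 and LYRM2 than control progenitors and on average fewer under ST7L. The libraries of the 2 genotypes overlapped in ST7L, PRSS23, ANKRD6 and WNT2B. The share of all features with no such overlap was not counted, so the separation under FZD4 and LYRM2 is a description. In each pair exactly 1 of the 2 names passed an adjusted p of 0.05 in edgeR's quasi-likelihood test over all features. Of the 11408 features tested in that comparison, 21.7% passed (11.0% higher and 10.7% lower in BRAT1 KO), and nothing is read from the count of 3 of 6 members, since the choice used these libraries. The median log2 fold change of all features was 0.07. In bulk RNA, fewer cells of a type and less RNA per cell cannot be told apart.

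FZD4 had the largest difference of the 6 in log2 fold change. Its level was 246 to 426 CPM with a median of 331 CPM in the 6 BRAT1 KO libraries, against 51.2 to 70.6 CPM with a median of 60.7 CPM in the 6 control libraries. The raw counts were 970, 1169 and 1436 in replicates A to C of BRAT1 KO line 1 and 858, 887 and 773 in line 2. Control line 1 gave 260, 204 and 215, and control line 2 gave 210, 174 and 119. Every BRAT1 KO library stood above every control library, in both lines. The log2 fold change was 2.44 (SE 0.16), past the threshold, and the ratio of line means ran from 4.04 to 7.24 over the 4 pairings of a BRAT1 KO line with a control line. Under PRSS23, on the other strand, the level was 70.7 ± 16.0 CPM in BRAT1 KO and 53.4 ± 8.78 CPM in control libraries (SD, n = 6 each), and the groups overlapped. Its log2 fold change was 0.39 (SE 0.18), not past the threshold.

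LYRM2 was the most abundant of the 6 names in both genotypes. Its level was 2041 to 2544 CPM with a median of 2308 CPM in BRAT1 KO libraries, against 723 to 906 CPM with a median of 844 CPM in control libraries. In raw counts that was 6427, 6974 and 7604 in BRAT1 KO line 1 and 6851, 7093 and 6552 in line 2, against 3097, 2691 and 2806 in the first control line and 2650, 2645 and 1933 in the other. The groups did not overlap, and the 2 lines of a genotype lay close together. The log2 fold change was 1.45 (SE 0.12), past the threshold, with a ratio of 2.59 to 2.94 over the 4 pairings of lines. ANKRD6 had 61.7 ± 11.7 CPM in BRAT1 KO and 56.8 ± 12.7 CPM in control libraries (SD, n = 6 each). Its log2 fold change of 0.09 (SE 0.18) did not pass, and its sign turned when control line 2 was left out (-0.17, SE 0.21).

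In the third pair the name that passed was lower in BRAT1 KO. ST7L had 15.3 to 38.5 CPM with a median of 22.6 CPM in BRAT1 KO libraries, against 36.5 to 60.4 CPM with a median of 45.0 CPM in control libraries. Its raw counts were small, at 41, 54 and 122 in BRAT1 KO line 1 and 110, 69 and 74 in line 2, against 189, 192 and 113 in the first control line and 153, 146 and 105 in the other. The groups overlapped through replicate A of BRAT1 KO line 2, which lay above replicate C of control line 1. The log2 fold change was -0.92 (SE 0.22), past the threshold, with a ratio of 0.457 to 0.635 over the line pairings. WNT2B, the ligand, had 209 to 265 CPM with a median of 238 CPM in BRAT1 KO libraries, against 147 to 218 CPM with a median of 203 CPM in control libraries. Its groups overlapped, and its log2 fold change of 0.25 (SE 0.13) did not pass.

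**Figure D2:**
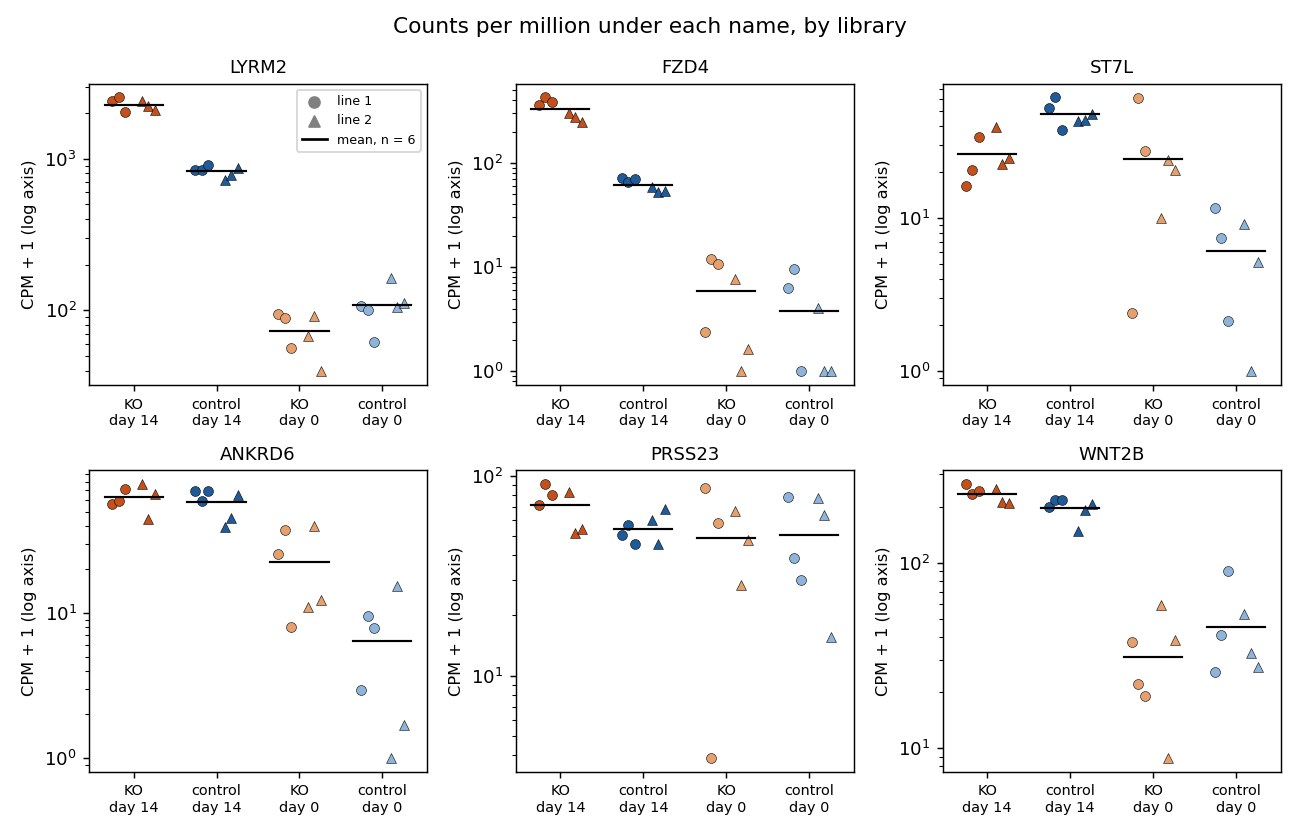
CPM plus 1 under each name (log axis) in every library, by genotype and day, with circles for line 1, triangles for line 2 and a bar at the mean of 6 libraries. At day 14 the BRAT1 KO libraries lie wholly above the control libraries for LYRM2 (2041 to 2544 against 723 to 906 CPM) and FZD4 (246 to 426 against 51.2 to 70.6 CPM), and the genotypes overlap for the other 4 names.

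Divided by exon length, the order of the members also differed between genotypes at day 14. The division takes counts as coming from the whole exon length of the named gene. Given the doubt on strand, the order is one of counts under names and not of gene levels. In BRAT1 KO progenitors LYRM2 stood at 263 ± 22.7 CPM per kb, FZD4 at 45.1 ± 9.37, WNT2B at 18.7 ± 1.76, ANKRD6 at 7.40 ± 1.41, PRSS23 at 6.03 ± 1.36 and ST7L at 3.11 ± 1.07 CPM per kb (SD, n = 6). In control progenitors LYRM2 stood at 95.3 ± 7.58 CPM per kb, WNT2B at 15.7 ± 2.10, FZD4 at 8.26 ± 1.12, ANKRD6 at 6.82 ± 1.53, ST7L at 5.75 ± 1.03 and PRSS23 at 4.55 ± 0.748 CPM per kb (SD, n = 6). The upper 3 names did not overlap with their next neighbour in the BRAT1 KO libraries, and the upper 2 did not in the control libraries. All lower neighbours in either order overlapped.

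The share of a pair's counts under 1 name needs no scaling between libraries. Under FZD4 fell 82.5 ± 2.12% of the FZD4-PRSS23 counts in BRAT1 KO and 53.4 ± 6.05% in control libraries at day 14 (SD, n = 6 each). Under LYRM2 fell 97.3 ± 0.581% of the LYRM2-ANKRD6 counts in BRAT1 KO and 93.6 ± 0.971% in control libraries. Put the other way, ANKRD6 had 1.96 to 3.47 counts per 100 counts under LYRM2 in BRAT1 KO libraries and 5.28 to 8.14 in control libraries. Under ST7L fell 9.66 ± 2.85% of the ST7L-WNT2B counts in BRAT1 KO and 19.3 ± 2.87% in control libraries. The genotypes did not overlap in any of these 3 shares. How many other opposite-strand pairs separate in this way was not counted, and these pairs were chosen by their counts, so nothing is read from it. As sums of both names, the FZD4-PRSS23 pair had 404 ± 82.6 CPM in BRAT1 KO and 114 ± 9.37 CPM in control libraries, the LYRM2-ANKRD6 pair had 2342 ± 196 CPM in BRAT1 KO and 884 ± 77.8 CPM in control libraries, and the ST7L-WNT2B pair had 260 ± 24.4 CPM in BRAT1 KO and 243 ± 30.1 CPM in control libraries. The sums of the third pair overlapped between genotypes, unlike those of the other 2 pairs.

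**Figure D3:**
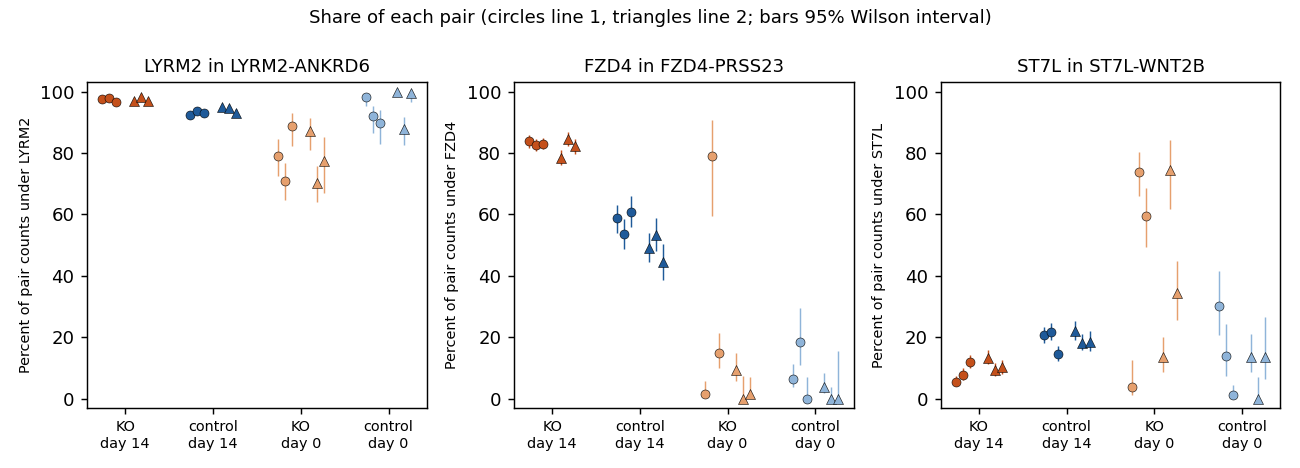
Percent of a pair's counts under LYRM2, FZD4 and ST7L in every library (circles line 1, triangles line 2), with 95% Wilson intervals for counting error. At day 14 the BRAT1 KO libraries lie above the control libraries for LYRM2 and FZD4 and below them for ST7L, while at day 0 single libraries run from 0 to 79.2% for FZD4.

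A measure of counts on the less used strand was on average higher in BRAT1 KO libraries at day 14, without a test. Its ranges in the 2 genotypes met at 1.81. Over 542 opposite-strand pairs without the members, in which the lesser name had under 5% of the counts of the greater, the lesser names had 1.81 to 2.84 counts per 100 of the greater in BRAT1 KO libraries and 1.33 to 1.81 in control libraries. With this percent as a covariate, an alternative chosen after seeing the data, LYRM2, FZD4 and ST7L remained past the threshold, and PRSS23 passed as well with a log2 fold change of 0.75 (SE 0.23), which makes 4 of 6 members. Of all features, 1388 passed in that fit. The percent itself differed with genotype at day 14, so that fit cannot tell the 2 apart. At day 0 the percent was 0.720 to 1.02 in BRAT1 KO and 0.604 to 0.939 in control libraries. Counts under the names of cell type markers also differed at day 14, with the same doubt on strand. In BRAT1 KO, 5 of 7 tested neural progenitor markers and 3 of 5 tested neuron markers were higher, where 11.0% of all features were. Of 4 tested neural crest markers 2 were lower, where 10.7% of all features were (edgeR, adjusted over all features). SOX10, a neural crest factor, averaged 9.72 ± 7.02 CPM in BRAT1 KO and 69.4 ± 12.1 CPM in control libraries. TFAP2B averaged 0.464 CPM in BRAT1 KO and 10.4 CPM in control libraries. Other crest markers did not follow, with TFAP2A at 15.2 CPM in BRAT1 KO and 12.6 CPM in control libraries and PAX3 at 4.74 and 5.40 CPM. The summed neuron markers were at 87.0 to 226 CPM in BRAT1 KO and 28.7 to 74.2 CPM in control libraries, and the summed neural crest markers at 12.6 to 43.2 CPM in BRAT1 KO and 78.5 to 118 CPM in control libraries. No marker of these 3 lists was at 0 over a whole day 14 group, and the part of cell composition in the pairs' differences was not tested.

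Features next to the pairs were read for comparison. Within ANKRD6, the minus strand feature ENSG00000237027 (chromosome 6, 89560875 to 89567044) was higher in BRAT1 KO, with 101 ± 13.4 CPM against 38.5 ± 7.72 CPM in control libraries (log2 fold change 1.39, SE 0.17, edgeR adjusted p 8.07e-07). It lies beyond the 3′ end of LYRM2 on the same strand and was chosen after its values were seen. MDN1, a ribosome biogenesis ATPase gene that is also on the minus strand and ends 3.75 kb upstream of LYRM2, had 109 ± 19.1 CPM in BRAT1 KO and 48.7 ± 9.73 CPM in control libraries (log2 fold change 1.15, SE 0.16, edgeR adjusted p 7.16e-06). RRAGD, on the side of ANKRD6, did not pass (0.90, SE 0.53, edgeR adjusted p 0.234). With all 24 libraries in 1 fit, ENSG00000237027 (edgeR adjusted p 0.372) and MDN1 (0.472) did not pass either, while all other alternatives kept both.

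Around FZD4-PRSS23 the nearest tested features were far away and low. CCDC81, 368 kb from the pair, had 7.32 ± 4.36 CPM in BRAT1 KO and 1.25 ± 1.49 CPM in control libraries (log2 fold change 2.41, SE 0.66, edgeR adjusted p 0.00908). This call was lost without BRAT1 KO line 2 (adjusted p 0.0732), without control line 2 (0.123) and with the covariate (0.245). TMEM135, 82.5 kb away, had 5.36 ± 2.96 CPM in BRAT1 KO and 1.17 ± 1.86 CPM in control libraries (2.10, SE 0.75, edgeR adjusted p 0.0440), and lost the threshold in 17 of 23 alternatives, with an adjusted p of up to 0.115 when 1 library was left out (replicate C of BRAT1 KO line 1). Inside PRSS23, the minus strand features PRSS23-AS1 and OR7E13P were too low for the test, at 2.96 ± 2.03 and 3.15 ± 2.61 CPM in BRAT1 KO and 0.211 ± 0.347 and 0.182 ± 0.289 CPM in control libraries. They share the strand of FZD4 and lie beyond its 3′ end. ENSG00000280339, MOB4P2 and OR7E2P, which are placed likewise, were also too low for the test. Those features averaged 0.805, 0.271 and 0.559 CPM in BRAT1 KO and 0.396, 0.161 and 0 CPM in control libraries. Around ST7L-WNT2B, DDX20 did not pass (0.68, SE 0.40, edgeR adjusted p 0.238), and the antisense feature ENSG00000225075, 72.9 kb away, was lower in BRAT1 KO at 15.4 ± 4.15 CPM against 29.1 ± 8.39 CPM in control libraries (-0.93, SE 0.26, edgeR adjusted p 0.0102). This call was lost without BRAT1 KO line 1 (adjusted p 0.0585) or control line 1 (0.0847), and when all 24 libraries were fitted together (0.701). It had the same sign as ST7L, which lies on the same strand.

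At day 0 no member differed between genotypes past the threshold. None of the 4832 features tested passed in edgeR (0%), DESeq2 also called 0, and 99 features had an unadjusted p under 0.05. LYRM2 had 72.3 ± 22.4 CPM in BRAT1 KO and 107 ± 32.4 CPM in control stem cells, with a log2 fold change of -0.59 (SE 0.33). ST7L had 23.2 ± 20.1 CPM in BRAT1 KO and 5.10 ± 4.13 CPM in control stem cells (2.14, SE 0.93). Its counts ran from 2 to 104 in BRAT1 KO libraries and from 0 to 22 in control libraries, and the groups overlapped. ANKRD6 had 21.3 ± 13.9 CPM in BRAT1 KO and 5.39 ± 5.56 CPM in control stem cells (1.94, SE 0.93). WNT2B and PRSS23 had log2 fold changes of -0.58 (SE 0.51) and -0.10 (SE 0.57). FZD4 was too low to be tested, with 0 to 21 counts in BRAT1 KO and 0 to 12 counts in control libraries. Day 0 libraries were shallower, and differences of these sizes did not stand out from the spread at that depth.

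Between day 14 and day 0, FZD4 had the largest difference of the 6 names in log2 fold change in both genotypes. In BRAT1 KO lines it averaged 333 ± 69.2 CPM at day 14 and 4.90 ± 4.85 CPM at day 0, with a log2 fold change of 5.50 (SE 0.69). In control lines it averaged 61.0 ± 8.25 CPM at day 14 and 2.82 ± 3.54 CPM at day 0 (3.81, SE 0.68), and 3 of the 6 control libraries at day 0 had no count. LYRM2 was higher at day 14 by 4.47 (SE 0.23) in BRAT1 KO and 2.41 (SE 0.21) in control lines, and WNT2B by 2.43 (SE 0.35) in BRAT1 KO and 1.64 (SE 0.34) in control lines. ANKRD6 and ST7L were past the threshold in control lines, by 2.90 (SE 0.59) and 2.57 (SE 0.66), and not in BRAT1 KO lines, by 1.03 (SE 0.54) and -0.41 (SE 0.61). ANKRD6 did pass in BRAT1 KO lines under DESeq2 (1.38, SE 0.50) and with RLE scaling (1.38, SE 0.56). PRSS23 passed in neither genotype, at 0.03 (SE 0.45) in BRAT1 KO and -0.47 (SE 0.45) in control lines. So 3 of 6 members passed in BRAT1 KO lines (4 of 6 under DESeq2 or RLE scaling), where 46.3% of 10971 tested features did, and 5 of 6 in control lines, where 42.8% did. The 2 comparisons come from 1 fit.

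The difference between these differences is the genotype by day interaction, which 1.47% of 10971 features passed. LYRM2 passed, with 2.06 (SE 0.29) on the log2 scale. ST7L had the largest value of the 6 in size, -2.98 (SE 0.89), and did not pass in edgeR. It passed under DESeq2, without a filter on low counts, and in edgeR without replicate A of BRAT1 KO line 1 at day 0 (-3.23) or without replicate A of control line 1 at day 0 (-3.43). ANKRD6 had -1.87 (SE 0.78), FZD4 1.69 (SE 0.91), WNT2B 0.79 (SE 0.47) and PRSS23 0.50 (SE 0.64), and none of these passed. For ST7L, leaving out replicate B of BRAT1 KO line 1 at day 0, which held 104 of the 254 counts of its group, turned the day difference in BRAT1 KO lines to 0.09 (SE 0.62).

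The pair shares at day 0 were loose. Under FZD4 fell 17.7 ± 30.7% of its pair in BRAT1 KO and 4.80 ± 7.20% in control stem cells, under ST7L 43.2 ± 30.7% in BRAT1 KO and 12.1 ± 10.9% in control stem cells, and under LYRM2 78.9 ± 7.81% in BRAT1 KO and 94.6 ± 5.27% in control stem cells (SD, n = 6 each). FZD4 had most of the FZD4-PRSS23 counts in all 6 BRAT1 KO and 4 of 6 control libraries at day 14, and PRSS23 had most of them in 5 of 6 BRAT1 KO and all 6 control libraries at day 0.

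Lines of the same genotype were compared to show the spread between lines. None of the 6 members passed between BRAT1 KO line 2 and line 1 at day 14, where 0.402% of 12442 features passed. FZD4 came nearest, at 275 ± 27.4 CPM in line 2 and 391 ± 33.2 CPM in line 1 (SD, n = 3 each), with a log2 fold change of -0.54 (SE 0.18). None passed between control line 2 and line 1, where 0.244% of 11479 features passed. ANKRD6 was 48.8 ± 13.3 CPM in control line 2 and 64.8 ± 6.00 CPM in line 1 (-0.43, SE 0.23). For FZD4 and LYRM2 the differences between lines were smaller than the difference between genotypes in each of the 4 line pairings.

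**Figure D4:**
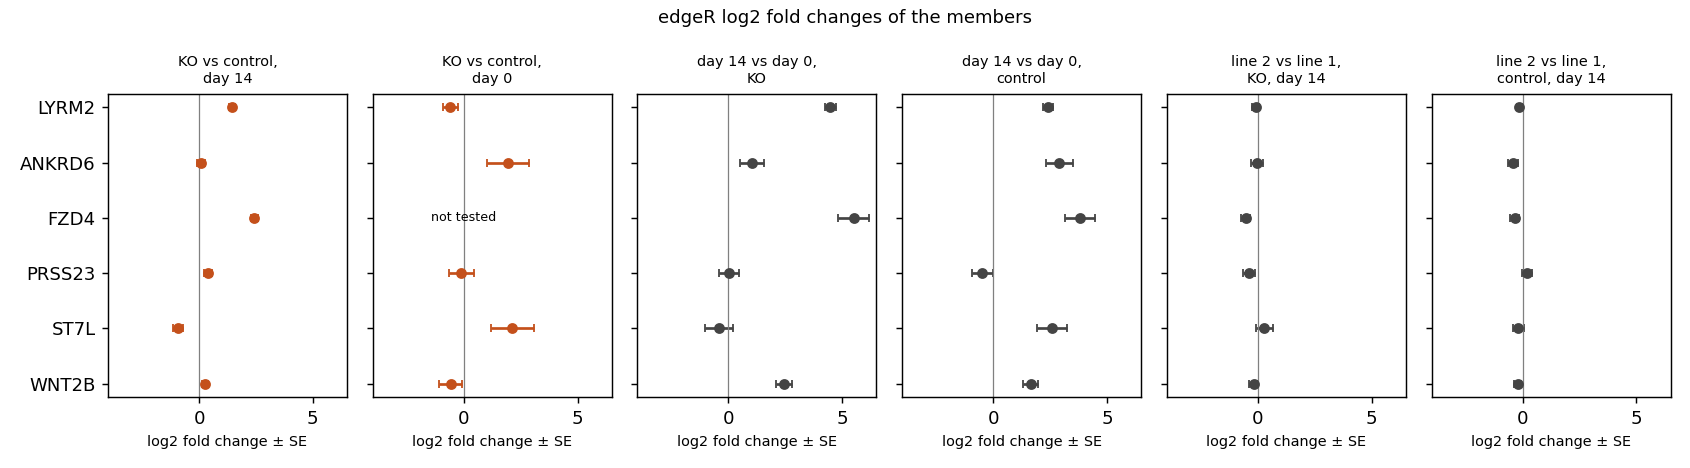
Log2 fold change ± SE of each member in 6 comparisons from edgeR fits over all features (FZD4 was not tested between genotypes at day 0). FZD4 (2.44) and LYRM2 (1.45) stand to the right and ST7L (-0.92) to the left between genotypes at day 14, while all line comparisons lie within 0.54 of 0.

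The features whose log2 CPM followed each member most closely over the 12 day 14 libraries were found by Pearson's r, which here reflects the genotype difference as well as the spread within genotypes. For FZD4 these were FEZF1-AS1 (r = 0.990) and TCTE1 (r = 0.982), and for LYRM2 SNX10, a sorting nexin gene (r = 0.986), and COPG2, a coatomer subunit gene (r = 0.982). FEZF1-AS1 lies opposite FEZF1, a forebrain transcription factor gene, and had 391 ± 74.6 CPM in BRAT1 KO and 16.7 ± 3.04 CPM in control libraries. SNX10 had 580 ± 115 CPM in BRAT1 KO and 141 ± 23.8 CPM in control libraries. Within genotypes r was taken from log2 of CPM plus 1 without TMM scaling, unlike the r over 12 libraries. The likeness there was uneven. Between FZD4 and FEZF1-AS1 r was 0.875 over the 6 BRAT1 KO libraries and 0.562 over the 6 control libraries. Between LYRM2 and SNX10 it was 0.381 over the BRAT1 KO libraries and 0.922 over the control libraries. The 2 most alike features of ST7L were VSIG10L2 (r = 0.966) and ATP5IF1 (r = 0.960), the most alike feature of PRSS23 was TMED5 (r = 0.948), the 2 most alike of ANKRD6 were AFTPH (r = 0.943) and RASGRF2-AS1 (r = 0.846), and those of WNT2B were DDB2 (r = 0.918) and NEIL2 (r = 0.849).

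Among the other genes of the Wnt pathway, a list of 100 genes by textbook role, 38 besides the members were tested at day 14. Of these 8 were higher and 3 lower in BRAT1 KO, with a median log2 fold change of 0.45 against 0.07 over all features. Over all features 11.0% were higher and 10.7% lower, so with this few genes in a role the counts by role are a description. By role without the members, the test was passed by 1 of 2 tested ligands (lower), the 1 tested secretion factor (higher), 1 of 6 receptors (higher), 2 of 4 secreted inhibitors (both higher), 4 of 14 cytoplasmic components (2 higher and 2 lower), 2 of 10 nuclear factors (both higher) and none of 4 target genes. Of all 12 called genes, FZD4 included, 6 have an exon opposite and 6 have none. The doubt on strand holds for both kinds, since the counts under a name with no exon opposite may not be of that gene's own RNA either.

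FRZB and SFRP1, secreted proteins that bind Wnts, were both higher in BRAT1 KO. FRZB averaged 21.6 ± 17.2 CPM in BRAT1 KO and 2.87 ± 1.53 CPM in control libraries (log2 fold change 2.84, SE 0.48, edgeR adjusted p 1.24e-04), and SFRP1 16.8 ± 7.39 CPM in BRAT1 KO and 4.05 ± 2.47 CPM in control libraries (2.02, SE 0.40, edgeR adjusted p 4.34e-04). CTNNB1, which encodes β-catenin, averaged 46.8 ± 5.95 CPM in BRAT1 KO and 21.7 ± 3.28 CPM in control libraries (1.10, SE 0.20, edgeR adjusted p 2.45e-04). WLS, the carrier that brings Wnt proteins to the cell surface, averaged 18.2 ± 11.1 CPM in BRAT1 KO and 7.11 ± 2.10 CPM in control libraries (1.30, SE 0.36, edgeR adjusted p 0.00944). This call was lost in 7 of 24 alternatives, among them leaving out replicate C of BRAT1 KO line 1 (adjusted p 0.0503).

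WNT1, a ligand of the midbrain and dorsal neural tube, was lower at 1.83 ± 1.011 CPM in BRAT1 KO against 8.34 ± 5.12 CPM in control libraries (-2.20, SE 0.52, edgeR adjusted p 0.00302). CSNK1D, a casein kinase gene, averaged 27.7 ± 23.3 CPM in BRAT1 KO and 183 ± 31.5 CPM in control libraries (-2.74, SE 0.61, edgeR adjusted p 0.00905). Its BRAT1 KO lines differed, with 6.73 ± 4.57 CPM in line 1 and 48.6 ± 5.14 CPM in line 2 (SD, n = 3 each), and every library of both lay below every control library. The genotypes did not overlap for CTNNB1 and WNT1 either, and overlapped for FRZB, SFRP1 and WLS. The share of all features with no such overlap was not counted, so this is a description. The CSNK1D call was lost in 4 of 24 alternatives, 3 of which leave a genotype with fewer lines or libraries. APC2, a relative of the destruction complex protein APC, was lower by a log2 fold change of -0.70 (SE 0.24, edgeR adjusted p 0.0381), and lost the threshold in 13 of 24 alternatives. Leaving out any 1 of 7 libraries (replicates A and C of BRAT1 KO line 1, A of BRAT1 KO line 2, B and C of control line 1, or A and B of control line 2) gave it an adjusted p of 0.0529 to 0.0780. The other 4 called genes, PRICKLE1, TLE3, TCF7L2 and FZD2, were higher with adjusted p between 0.0188 and 0.0410, and each lost the threshold in 9 or more of 24 alternatives. With 1 library left out, the adjusted p reached 0.0533 for PRICKLE1 (without replicate A of control line 1), 0.132 for TLE3 (without replicate C of BRAT1 KO line 1), 0.118 for TCF7L2 (without replicate A of control line 1) and 0.152 for FZD2 (without replicate C of BRAT1 KO line 1). With the less used strand's percent as a covariate, FRZB, CTNNB1, SFRP1, WNT1 and CSNK1D still passed, and the other 6 called genes besides FZD4 did not. With all 24 libraries in 1 fit, where 241 features passed in all, none of these genes besides FZD4 passed, and WNT1 was not tested. WNT1 also lost the threshold without control line 2 (edgeR adjusted p 0.0649).

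Features lying opposite the other genes of the Wnt list were also counted, since most antisense features had more counts than the coding gene they overlap. Of 15 tested, 2 were higher and 2 lower in BRAT1 KO, with a median log2 fold change of -0.16, where 21.7% of all features passed in either direction. LEF1-AS1, opposite the gene of the nuclear factor LEF1, had 86.0 ± 15.9 CPM in BRAT1 KO and 277 ± 35.1 CPM in control libraries (-1.70, SE 0.15, edgeR adjusted p 1.41e-09). LTO1, opposite the cyclin D1 gene CCND1, had 162 ± 27.2 CPM in BRAT1 KO and 433 ± 25.7 CPM in control libraries (-1.43, SE 0.13, edgeR adjusted p 2.88e-09). Under their own names LEF1 and CCND1 did not pass, at -0.83 (edgeR adjusted p 0.391) and -0.16 (edgeR adjusted p 0.643). The 2 higher features were ENSG00000267317 opposite APC2 (2.01, SE 0.35, edgeR adjusted p 9.65e-05) and ENSG00000257225 opposite PRICKLE1 (1.11, SE 0.21, edgeR adjusted p 2.90e-04). Of these 4 features, LTO1 alone also passed with all 24 libraries in 1 fit. ENSG00000257225 also lost the threshold without control line 1 (edgeR adjusted p 0.0587) and with counts summed per line (0.0531).

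The 3 pairs were set beside the other opposite-strand pairs of coding genes that share at least 100 exonic bp and had both names tested at day 14, of which there were 914. In 329 of these (36.0%) exactly 1 name passed the threshold, in 42 both passed (25 in the same direction and 17 in opposite directions), and in 543 neither did. The median size of the difference in log2 fold change between the 2 names was 0.51, and the 90th percentile was 1.36. It was 2.05 for FZD4-PRSS23, which 2.95% of the other pairs exceeded, 1.36 for LYRM2-ANKRD6, which 9.96% exceeded, and 1.17 for ST7L-WNT2B, which 16.5% exceeded. Their overlaps were also longer than the median of 403 bp. The pairs were proposed for their values, so their place in this distribution is a description.

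**Figure D5:**
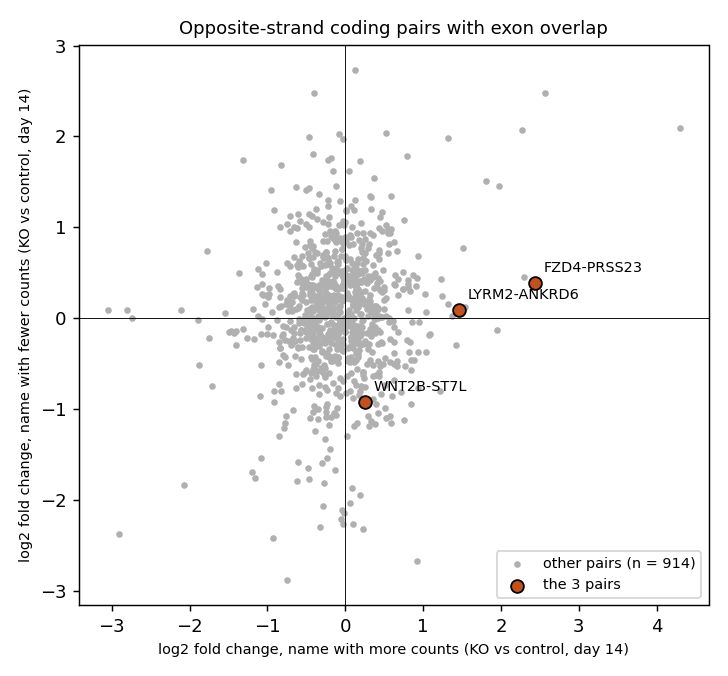
Log2 fold change between BRAT1 KO and control progenitors for both names of each opposite-strand coding pair, with the name that has more counts on the x axis and the other on the y axis (grey, 914 other pairs). The 3 pairs lie off the diagonal, with differences of 2.05 for FZD4-PRSS23, 1.36 for LYRM2-ANKRD6 and 1.17 for ST7L-WNT2B.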

How the data were processed

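The deposited values were raw counts per feature, 1 table a library, per the file headers and values, and no column belonged to other samples. The authors used bcl2fastq 2.20.0, STAR 2.7.9a on GRCh38, featureCounts of Subread 2.0.1, DESeq2 1.34.0 and R 3.5.1, per the submitters' processing notes. Neither the annotation release nor the strand setting is given in the sources used here. Names were matched to GENCODE release 29, which placed 56985 of 61248 features. Release 29 was not shown to be the one used for counting.

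Groups were compared with edgeR 4.0.16 under R 4.3.3 (quasi-likelihood F test, TMM scaling, filterByExpr, robust), adjusted by Benjamini-Hochberg over all features tested, at 0.05. Genotypes were compared within a day, days and the interaction in 1 fit of all 24 libraries, and lines within a genotype. Line was not a term, and p-values measure the spread between libraries, taking those of a line as independent. The SE is the log2 fold change divided by the square root of F. CPM is per library total, without TMM, except for r over the 12 day 14 libraries, which used TMM. Shares have 95% Wilson intervals, which cover counting error only. The tests were tested on simulated data. No replicate pair agreed within sampling noise (smallest chi-square per degree of freedom 4.89).

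The members and lists were chosen with earlier results of these data known. Named besides the members were the 2 features most like each member (Pearson r of log2 CPM, prior count 2), of the Wnt list up to 5 genes in each direction with the smallest adjusted p, the nearest tested feature on each side of a pair, and features opposite a Wnt gene. A feature that meets this rule is not reported here. Others were chosen after their values were seen. As alternatives, the fits were repeated with no filter, with RLE scaling, with DESeq2 1.42.0, with a replicate block, with counts summed per line, with all libraries in 1 fit, without features above 1% of counts, without each line and each library, and, added after seeing the data, with the less used strand's percent as a covariate.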

Additional observations from a re-analysis of the deposited data

Results flagged for a closer look

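Of 36 groups of 6 values, 3 held a library far from the others, and chance gives about 1 in 20. Counts under WNT2B at day 14 were lowest in replicate A of control line 2, at 147 CPM, against 193 to 218 CPM in the other control libraries. The FZD4 share of its pair at day 0 was 79.2% in replicate B of BRAT1 KO line 1, from 19 FZD4 and 5 PRSS23 counts. Among the control libraries of day 0 it was highest in replicate B of control line 1, at 18.5%, from 12 FZD4 and 53 PRSS23 counts.

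The genotype difference under LYRM2 differed between days, with an interaction of 2.06 on the log2 scale. LYRM2 was higher in BRAT1 KO at day 14 (1.45) and not at day 0 (-0.59). The members were chosen with results in view, so this is a description.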

How the results depend on the processing

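LYRM2 and FZD4 stayed past the threshold between genotypes at day 14 in all 24 alternatives, with log2 fold changes of 1.29 to 1.73 and 2.10 to 2.72. ST7L ran from -1.21 to -0.83 and lost it with all 24 libraries in 1 fit (-0.92). PRSS23 gained it with the added covariate (0.75). ANKRD6 ran from -0.041 (without replicate A of control line 2) to 0.13 with a library left out, and turned to -0.17 without control line 2 and -0.024 with counts summed per line.

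Of all features, 2474 passed at day 14, and 1552 without control line 1, 1266 without control line 2, 241 with all 24 libraries in 1 fit and 1388 with the added covariate. At day 0, 0 passed, and 13 with no filter, 1 without control line 1, 1 with counts summed per line and 116 with all libraries in 1 fit. Between days in BRAT1 KO lines, 5077 passed, and 8739 with no filter, while the members past it were 3, and 4 with DESeq2 or RLE scaling. The interaction gave 161, and 502 with DESeq2, 792 with no filter and 91 to 259 with a library left out. Members past it were 1, and 2 with DESeq2, 2 with no filter, and 1 to 2 with a library left out. Between BRAT1 KO lines 50 passed, and 145 with DESeq2, 129 with no filter and 22 to 140 with a library left out. Between control lines 28 passed, and 86 with no filter and 21 to 57 with a library left out. The cause of these shifts was not tested.

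Signs also turned for values that did not pass. With a library left out, PRSS23 ran from -0.37 to 0.15 between genotypes at day 0 and from -0.21 to 0.26 between days in BRAT1 KO lines. ST7L ran from -0.65 to 0.087 (without replicate B of line 1 at day 0) between days in BRAT1 KO lines. Between BRAT1 KO lines, ANKRD6 ran from -0.21 to 0.11 and ST7L from -0.0024 to 0.55.

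The letters A to C do not pair the libraries by any label, and same-letter correlations of deviations ran from -0.223 to 0.0397 at day 14 and from 0.0849 to 0.251 at day 0. A replicate block gave 2256 features at day 14, with 3 members past the threshold as without it, and 184 features between BRAT1 KO lines. Small counts limit ST7L, ANKRD6 and PRSS23, and at day 0 all 6 names.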
